A study of Mus musculus with 2 samples.

Results

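The genes described here encode antiviral effectors that type I interferon induces. They comprised 43 named genes, chosen by symbol as antiviral interferon-stimulated genes, leaving out the guanylate-binding, immunity-related GTPase, IRF, STAT, TRIM and class I families. Of these, 41 were found by symbol in the deposited table of 16830 genes, and *Rnf213* and *Ifih1os* were not analysed here. The table compared CD4+CD25hiYFP+ Treg cells of *Usp21* fl/fl *Foxp3*-YFP-Cre mice (USP21-ΔTreg cells), in which Cre is made from the *Foxp3* locus and deletes *Usp21* in Treg cells, with the same gate from *Foxp3*-YFP-Cre mice (WT Treg cells). All mice were on the C57BL/6 background, carried the YFP-Cre fusion and are labelled as aged 6 months, and cells came from spleen and lymph node. Each genotype was represented by 1 library, and the sources used here do not say how many mice went into it. No test could therefore be made and no p-value is given. Every difference below is one between these libraries, and in bulk RNA fewer expressing cells and less RNA per cell cannot be told apart.

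Type I interferons bind the receptor chains IFNAR1 and IFNAR2, which activate the kinases JAK1 and TYK2. These switch on the transcription factor complex ISGF3, which holds IRF9 and binds interferon-stimulated response elements (ISREs) in the promoters of target genes. The proteins made in response act against viruses at several steps, from entry and RNA recognition to translation, nucleotide supply and release of particles. Interferon-γ acts through a receptor of its own and induces many of the same genes, so a lower level of these genes does not name the interferon concerned. Many are kept at a basal level without infection.

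Fragments assigned to the genes of the deposited table, recovered from its scaled counts, totalled 23418561 in the USP21-ΔTreg library and 23198364 in the WT Treg library. *Usp21* itself was at 4.56 FPKM (fragments per kilobase of transcript, scaled to library size) in USP21-ΔTreg cells and 11.8 FPKM in WT Treg cells. The Treg marker *Foxp3* was at 55.2 FPKM in USP21-ΔTreg cells and 91.8 FPKM in WT Treg cells. *Il2ra*, which encodes the sorted marker CD25, was at 19.3 FPKM in USP21-ΔTreg cells and 168 FPKM in WT Treg cells. *Tnfrsf18*, which encodes the receptor GITR, was at 318 FPKM in USP21-ΔTreg cells and 833 FPKM in WT Treg cells, and the T cell receptor chain gene *Cd3e* at 131 FPKM in USP21-ΔTreg cells against 79.3 FPKM in WT Treg cells. Over the 10948 genes with a mean of at least 1 FPKM, the median log2 fold change was 0.20 on FPKM and −0.01 on the scaled fragment counts.

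The antiviral genes were lower in USP21-ΔTreg cells as a group. Of the 40 members with a mean of at least 1 FPKM, 27 were at least 2-fold lower and none was at least 2-fold higher, while 13 lay between. The same limit took in 6.2% of all 10948 genes kept on the lower side and 7.78% on the higher side. The median log2 fold change of the members was −1.68, with a middle range between the quartiles from −2.65 to −0.72, beside quartiles of −0.20 and 0.55 for all genes. Fold changes were taken as log2 of USP21-ΔTreg over WT after adding 0.1 FPKM, which understates the difference of low genes. A total of 38 members (95%) lay below 0, as did 36.6% of all genes kept. Of the 40, 17 were at least 4-fold lower, as were 178 of all 10948 genes. On the scaled counts 30 members were at least 2-fold lower and none higher, where 7.93% and 4.34% of all genes were. The 27 members that were lower on FPKM were also lower on counts. The count ratio of 39 members had a 95% Clopper-Pearson interval below 1, and that of 29 members lay below 0.5. The share of all genes with such intervals was not computed, so neither count can be set against one. These intervals cover counting error only and hold no variation between mice. The summed level of the 40 members was 1315 FPKM in USP21-ΔTreg cells and 3299.8 FPKM in WT Treg cells.

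**Figure D1:**
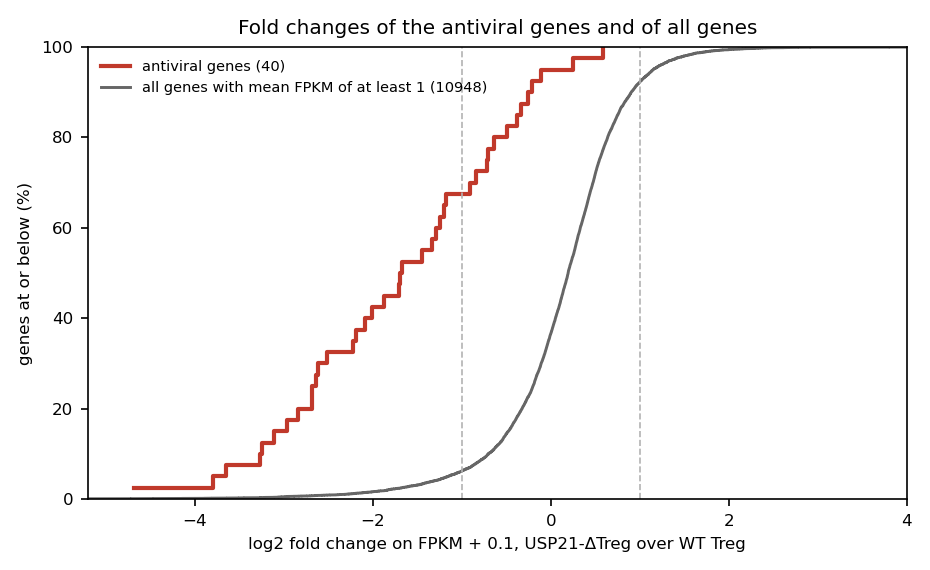
Cumulative share of genes (y axis, %) at or below each log2 fold change of USP21-ΔTreg over WT Treg on FPKM + 0.1 (x axis), for the 40 antiviral genes (red) and for all 10948 genes kept (grey). Dashed lines mark 2-fold, and the curve of the antiviral genes lies to the left of that of all genes, with medians of −1.68 and 0.20.

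**Figure D2:**
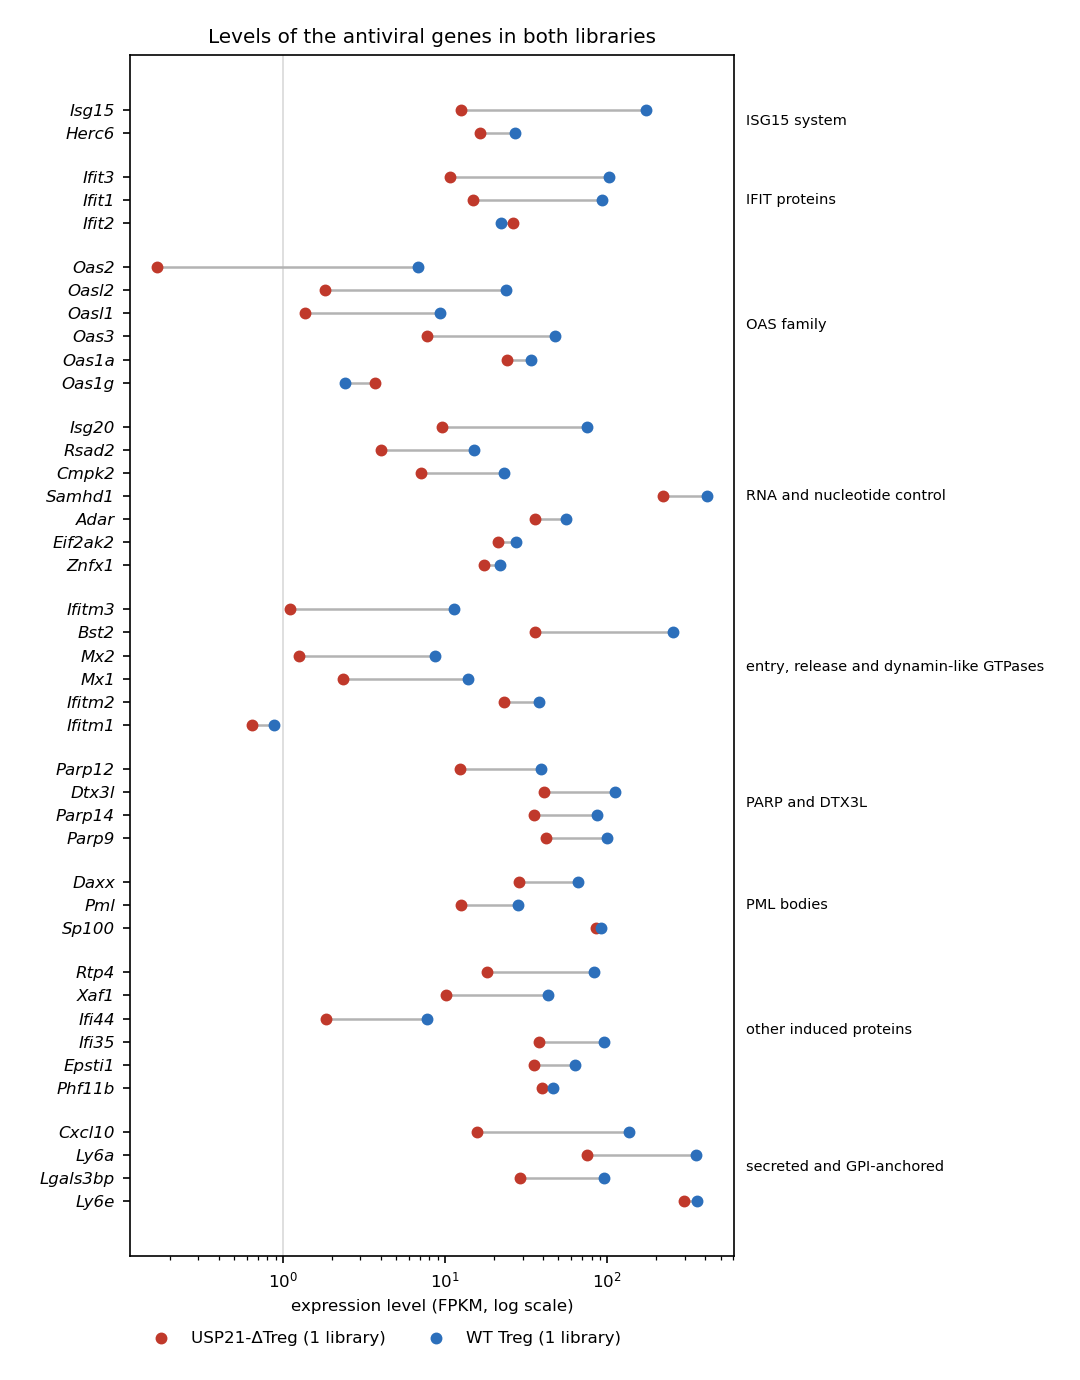
FPKM of each of the 41 antiviral genes (x axis, log scale) in the USP21-ΔTreg library (red) and the WT Treg library (blue), grouped by role, with a grey line joining the pair and a vertical line at 1 FPKM. *Ifit2* and *Oas1g* are the only genes with the red point to the right of the blue one.

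The ISG15 system attaches a ubiquitin-like modifier to other proteins. *Isg15*, which encodes the modifier, was among the members with the largest differences. It was at 12.5 FPKM in USP21-ΔTreg cells and 174 FPKM in WT Treg cells, or 184 USP21-ΔTreg and 2298 WT Treg fragments. Its log2 fold change was −3.79, and the count ratio was 0.0714 (95% Clopper-Pearson interval 0.0611 to 0.0830). *Herc6*, which encodes the main ISG15 ligase of the mouse, was at 16.3 FPKM in USP21-ΔTreg cells and 26.8 FPKM in WT Treg cells (log2 fold change −0.71). On scaled counts *Herc6* stood past 2-fold at −1.24. The enzymes of the same pathway outside the members were below 0 too, 2 of the 3 by at least 2-fold. The E2 enzyme gene *Ube2l6* was at 17.5 FPKM in USP21-ΔTreg cells and 44.4 FPKM in WT Treg cells, and the E1 gene *Uba7* at 38.7 FPKM in USP21-ΔTreg cells against 74.6 FPKM in WT Treg cells. *Usp18*, which encodes the ISG15 protease and a brake on the interferon receptor, was at 13.2 FPKM in USP21-ΔTreg cells and 70.7 FPKM in WT Treg cells. Log2 fold changes of these genes were −1.34, −0.95 and −2.41.

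The IFIT proteins bind viral RNA that lacks the marks of host messages. Their genes lie close together on chromosome 19 of mm10, *Ifit2* from 34550694 to 34576419, *Ifit3* from 34583531 to 34588731 and *Ifit1* from 34640871 to 34650009. *Ifit3b*, which was not analysed here, lies between *Ifit3* and *Ifit1*. *Ifit3* was at 10.8 FPKM in USP21-ΔTreg cells and 103 FPKM in WT Treg cells (log2 fold change −3.24, 599 USP21-ΔTreg and 6058 WT Treg fragments). *Ifit1* was at 14.9 FPKM in USP21-ΔTreg cells and 93.1 FPKM in WT Treg cells (−2.64). *Ifit2*, their neighbour, did not share this difference, at 26.4 FPKM in USP21-ΔTreg cells and 22.2 FPKM in WT Treg cells. Its log2 fold change was 0.25 on FPKM and −0.15 on scaled counts, with 2790 USP21-ΔTreg and 2764 WT Treg fragments. In WT Treg cells *Ifit2* was the lowest of the 3 genes by FPKM, and in USP21-ΔTreg cells it was the highest. *Ifit3* has a near-identical copy, so its value is uncertain to that extent.

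Oligoadenylate synthetases sense double-stranded RNA and make the second messenger that activates RNase L. The differences in this family were widely spread. *Oas2* was at 0.167 FPKM in USP21-ΔTreg cells and 6.77 FPKM in WT Treg cells, which is 15 USP21-ΔTreg and 629 WT Treg fragments. Its log2 fold change was −4.69, the lowest of the members on this scale, but −2.74 with 1 FPKM added in place of 0.1, and the count ratio was 0.0213 (95% Clopper-Pearson interval 0.0118 to 0.0353). *Oas3* was at 7.69 FPKM in USP21-ΔTreg cells and 47.8 FPKM in WT Treg cells (−2.62). The related genes *Oasl2* and *Oasl1* were also at least 2-fold lower. *Oasl2*, an active synthetase in the mouse, was at 1.80 FPKM in USP21-ΔTreg cells and 23.8 FPKM in WT Treg cells (−3.65). *Oasl1*, which restrains translation of *Irf7* in the mouse, was at 1.36 FPKM in USP21-ΔTreg cells and 9.27 FPKM in WT Treg cells (−2.68). *Oas1a* and *Oas1g* stood apart from these. *Oas1a* was at 24.1 FPKM in USP21-ΔTreg cells and 33.8 FPKM in WT Treg cells (−0.49). *Oas1g* was at 3.68 FPKM in USP21-ΔTreg cells and 2.41 FPKM in WT Treg cells (0.59), and its 178 USP21-ΔTreg and 111 WT Treg fragments gave a count ratio of 1.43 (95% Clopper-Pearson interval 1.12 to 1.83). It was the member whose count interval lay above 1. *Oas2*, *Oas3*, *Oas1g* and *Oas1a* lie in this order on chromosome 5 of mm10 and are read from its minus strand, between 120730333 and 120907521, so the difference varied within this stretch. The *Oas1* genes are close paralogs, and reads may have been split between them.

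Promoters were searched for the core of the ISRE, GAAANNGAAA, which reads TTTCNNTTTC on the other strand, from 250 bases before to 50 after each RefSeq start on GRCm38. Of the 34 members found in this promoter set, 13 held it (38.2%), against 3.99% of the 27025 genes in the set. The gamma-activated site TTCNNNGAA, an element of interferon-γ responses, was present in 9 of 34 members (26.5%) and in 9.55% of all genes. The stretches below are shown because members of the ISG15, IFIT and OAS families share the motif yet differ in how far apart the libraries were. They are upstream of the start, read 5′ to 3′ on the strand of the gene, with the bases of each ISRE core in capitals. Adjoining or overlapping matches merge into longer runs.
Isg15, chr4:156200860-156200911, minus strand: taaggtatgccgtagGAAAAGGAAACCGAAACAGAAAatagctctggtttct
Ifit3, chr19:34583358-34583431, plus strand: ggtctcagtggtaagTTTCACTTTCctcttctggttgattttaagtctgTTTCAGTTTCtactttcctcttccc
Ifit1, chr19:34640770-34640828, plus strand: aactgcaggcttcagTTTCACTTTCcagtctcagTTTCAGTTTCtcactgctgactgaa
Oas3, chr5:120777710-120777749, minus strand: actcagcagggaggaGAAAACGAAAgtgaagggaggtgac
Oas1a, chr5:120907526-120907560, minus strand: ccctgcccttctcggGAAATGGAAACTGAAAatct
Oas1g, chr5:120887614-120887646, minus strand: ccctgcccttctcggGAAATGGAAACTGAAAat

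*Oas1a* and *Oas1g* carried the same capital run close to the start, and neither was at least 2-fold apart between the libraries. *Isg15*, with 3 overlapping matches, and *Ifit1* and *Ifit3*, with 2 each, were among the members with the lowest fold changes. So were *Ifitm3* (−3.26), *Cxcl10* (−3.11) and *Bst2* (−2.84), which also held the core. *Oasl2* (−3.65), *Isg20* (−2.96) and *Oasl1* (−2.68) were among the lowest too but held none. *Ifit2* held no match in its windows. Of the 13 members with the core, 8 were at least 2-fold lower (61.5%), as were 12 of the 19 kept members without it (63.2%). The median log2 fold change was −2.62 with the core and −1.34 without it. The kept members *Ly6a*, *Ly6e*, *Mx1*, *Mx2*, *Oas2*, *Parp9*, *Parp14* and *Rtp4* had no promoter in the set. They are left out of these shares and medians, and all but *Ly6e* were at least 2-fold lower. Of the 315 kept genes of the whole table with the core, 11.1% were at least 2-fold lower, against 6.08% of the 7906 with a promoter that lacked it. Without the members, 27 of 302 genes with the core were at least 2-fold lower (8.94%). A match is a stretch of letters and says nothing of whether a factor was bound.

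A further group acts on RNA and nucleotides. *Isg20*, an exoribonuclease, was at 9.59 FPKM in USP21-ΔTreg cells and 75.4 FPKM in WT Treg cells (log2 fold change −2.96). *Rsad2* (viperin), which makes a chain-terminating nucleotide, and *Cmpk2*, a mitochondrial nucleotide kinase, are neighbours transcribed in opposite directions on chromosome 12. *Rsad2* was at 4.05 FPKM in USP21-ΔTreg cells and 15.04 FPKM in WT Treg cells (−1.87), and *Cmpk2* at 7.08 FPKM in USP21-ΔTreg cells against 23.1 FPKM in WT Treg cells (−1.69). This pair thus differed by similar amounts. *Samhd1*, which depletes deoxynucleotides, had the highest level of all members in WT Treg cells. It was at 220.2 FPKM in USP21-ΔTreg cells and 412 FPKM in WT Treg cells, with log2 fold changes of −0.90 on FPKM and −1.15 on counts. Within this group, *Adar*, *Eif2ak2* and *Znfx1* differed by less. *Adar*, which edits adenosines in double-stranded RNA, was at 35.7 FPKM in USP21-ΔTreg cells and 55.7 FPKM in WT Treg cells (−0.64). *Eif2ak2* encodes PKR, a kinase that halts translation, and was at 21.0 FPKM in USP21-ΔTreg cells and 27.4 FPKM in WT Treg cells (−0.38). *Znfx1*, a helicase that senses viral RNA, was at 17.3 FPKM in USP21-ΔTreg cells and 21.8 FPKM in WT Treg cells (−0.33). The exons of *Adar*, *Eif2ak2* and *Znfx1* overlap genes of the other strand.

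Genes that act on entry and release of particles were at least 2-fold lower in 4 of the 5 kept cases. *Bst2* encodes tetherin, which holds budding particles at the cell surface. It was at 35.6 FPKM in USP21-ΔTreg cells and 255 FPKM in WT Treg cells (log2 fold change −2.84). The IFITM proteins block fusion of virus and cell. *Ifitm3* was at 1.10 FPKM in USP21-ΔTreg cells and 11.4 FPKM in WT Treg cells, from 11 USP21-ΔTreg and 106 WT Treg fragments (−3.26), so that its count ratio of 0.0925 has a wide interval from 0.0448 to 0.172. *Ifitm2* was at 23.1 FPKM in USP21-ΔTreg cells and 38.2 FPKM in WT Treg cells (−0.72). *Ifitm1* was the member below the minimum level, at 7 fragments in USP21-ΔTreg cells against 9 in WT Treg cells, too few to show a difference. *Mx1* and *Mx2*, dynamin-like GTPases, were at 2.33 and 1.26 FPKM in USP21-ΔTreg cells, against 13.8 and 8.62 FPKM in WT Treg cells (−2.52 and −2.68). The *Mx1* gene of C57BL/6 mice is known to carry a deletion that abolishes working protein, so its RNA level says nothing of antiviral function here. The IFITM and MX genes are paralogs that may share reads.

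All 4 genes of the ADP-ribosylation group were at least 2-fold lower and lay close together, with log2 fold changes from −1.67 to −1.25. *Parp12* was at 12.3 FPKM in USP21-ΔTreg cells and 39.2 FPKM in WT Treg cells. *Parp14*, a macrodomain protein that modifies STAT signalling, was at 35.4 FPKM in USP21-ΔTreg cells and 86.4 FPKM in WT Treg cells. DTX3L is an E3 ligase that works as a complex with PARP9. *Dtx3l* was at 40.7 FPKM in USP21-ΔTreg cells and 111 FPKM in WT Treg cells, and *Parp9* at 41.7 FPKM in USP21-ΔTreg cells against 99.2 FPKM in WT Treg cells. *Dtx3l* and *Parp9* are transcribed in opposite directions from chromosome 16, share exonic bases and stand in the table under the same locus, so their values are not independent. It is not given in the sources used here whether counting used strand.

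PML, SP100 and DAXX build nuclear bodies that silence viral genomes. *Daxx* was at 28.5 FPKM in USP21-ΔTreg cells and 65.8 FPKM in WT Treg cells (log2 fold change −1.20). *Pml* was at 12.5 FPKM in USP21-ΔTreg cells and 28.2 FPKM in WT Treg cells (−1.17). *Sp100* differed little, at 85.1 FPKM in USP21-ΔTreg cells and 91.6 FPKM in WT Treg cells (−0.10 on FPKM and −0.41 on counts). The 3 components of the same structure thus did not show the same difference.

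Among further induced proteins, *Rtp4*, a receptor transporter with antiviral activity in the mouse, was at 18.0 FPKM in USP21-ΔTreg cells and 82.4 FPKM in WT Treg cells (log2 fold change −2.19). *Xaf1*, a binding partner of the apoptosis inhibitor XIAP, was at 10.1 FPKM in USP21-ΔTreg cells and 43.1 FPKM in WT Treg cells (−2.09). *Ifi44* was at 1.85 FPKM in USP21-ΔTreg cells and 7.77 FPKM in WT Treg cells (−2.01). *Ifi35*, which pairs with NMI, was lower by less than these, at 37.8 FPKM in USP21-ΔTreg cells and 95.7 FPKM in WT Treg cells (−1.34). *Epsti1* was at 35.5 FPKM in USP21-ΔTreg cells and 63.7 FPKM in WT Treg cells, with −0.84 on FPKM and −1.04 on counts. *Phf11b*, which belongs to a family of close paralogs, was at 39.7 FPKM in USP21-ΔTreg cells against 46.0 FPKM in WT Treg cells (−0.21).

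Of the secreted and surface proteins, *Cxcl10* showed the largest difference. It encodes the ligand of CXCR3 that draws in Th1 cells, and was at 15.7 FPKM in USP21-ΔTreg cells and 136 FPKM in WT Treg cells. Its log2 fold change was −3.11, and 312 USP21-ΔTreg and 2816 WT Treg fragments gave a count ratio of 0.0988 (95% Clopper-Pearson interval 0.0876 to 0.111). *Art3*, whose exons overlap it on the other strand, was at 3.20 FPKM in USP21-ΔTreg cells against 1.22 FPKM in WT Treg cells, higher in USP21-ΔTreg cells. *Ly6a* encodes the surface protein Sca-1 and was at 75.3 FPKM in USP21-ΔTreg cells and 352 FPKM in WT Treg cells (−2.23). *Ly6e*, which encodes a related GPI-anchored protein, was at 298 FPKM in USP21-ΔTreg cells and 356 FPKM in WT Treg cells (−0.26), so that the pair had like levels in WT Treg cells alone. *Lgals3bp*, a secreted glycoprotein that binds galectin-3, was at 29.0 FPKM in USP21-ΔTreg cells and 94.98 FPKM in WT Treg cells (−1.71).

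**Figure D3:**
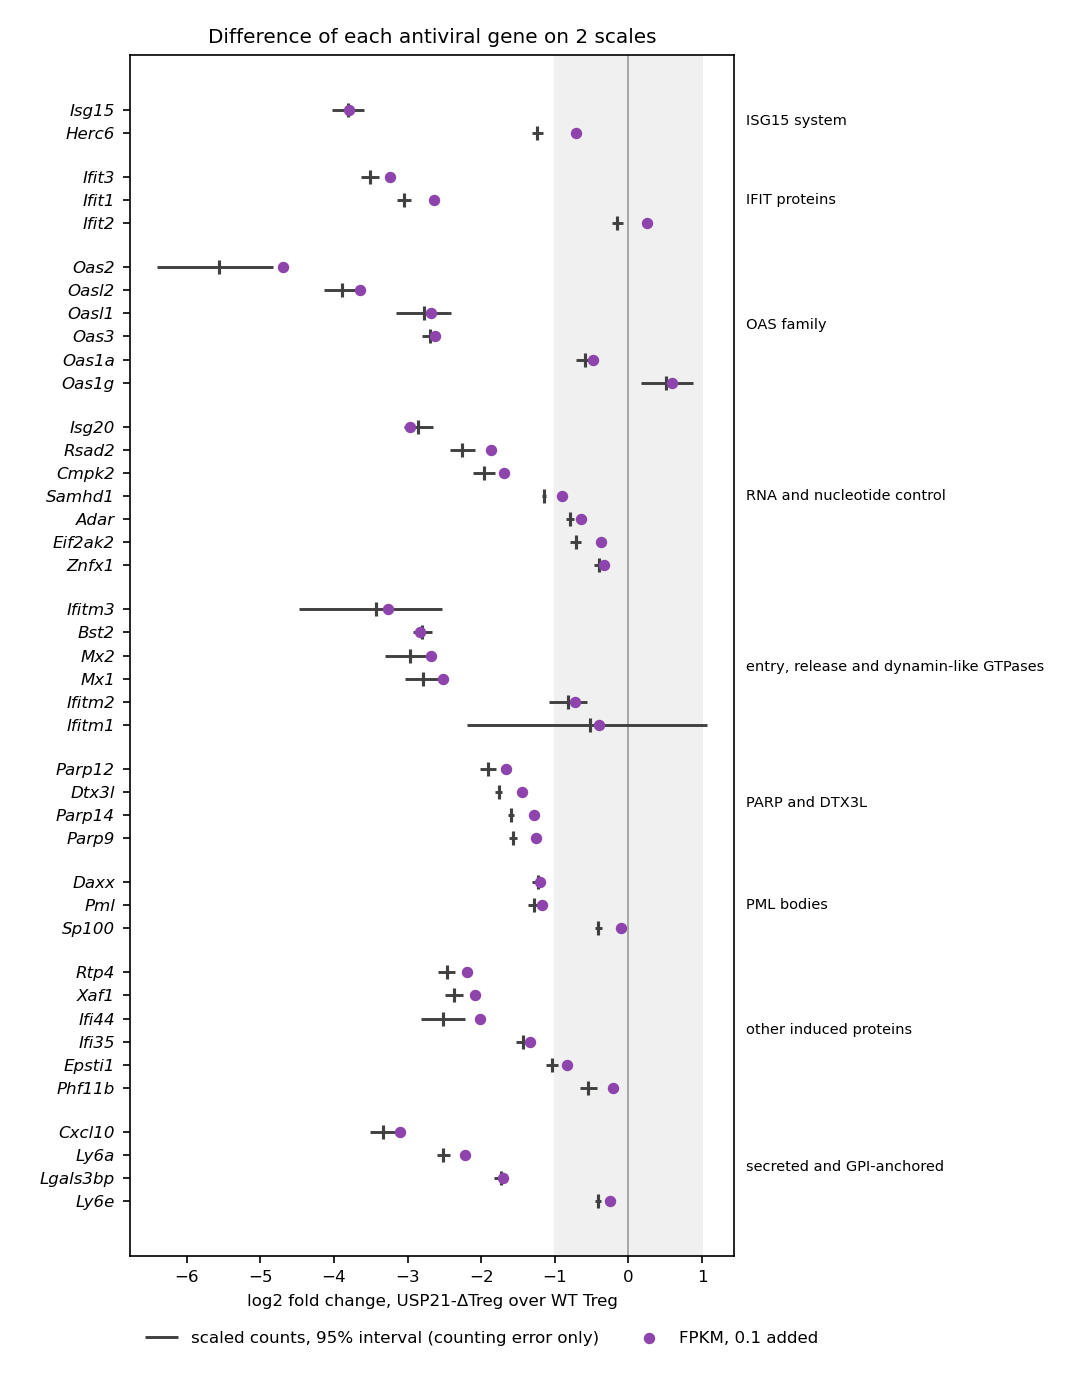
Log2 fold change of USP21-ΔTreg over WT Treg (x axis) for each of the 41 genes on FPKM + 0.1 (purple points) and on scaled counts (ticks, with bars for the 95% Clopper-Pearson interval, counting error only), by role. The grey band spans differences under 2-fold, and *Herc6*, *Samhd1* and *Epsti1* lie within it on FPKM and outside it on counts.

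Steps of the pathway upstream of these genes did not all differ in the same way. The receptor chains and their kinases were not lower as a group, with a median of 0.53 over 7 genes and none 2-fold apart. *Ifnar1* was at 38.7 FPKM in USP21-ΔTreg cells and 26.9 FPKM in WT Treg cells (0.53), *Ifnar2* at 54.9 FPKM in USP21-ΔTreg cells against 34.4 FPKM in WT Treg cells (0.67), and *Jak1* at 181 FPKM in USP21-ΔTreg cells against 111 FPKM in WT Treg cells (0.70). *Tyk2* (0.14), *Jak2* (0.19) and *Ifngr1* (0.61) were also above 0, and *Ifngr2* was at −0.56. On scaled counts *Jak2* was at −0.19 and the median of the group at 0.26. The transcription factor genes named next are themselves induced by interferon, and each was below 0. *Stat2*, which encodes a subunit of ISGF3, was at 14.8 FPKM in USP21-ΔTreg cells and 44.5 FPKM in WT Treg cells (−1.58). *Irf9*, which encodes its DNA-binding subunit, was at 53.7 FPKM in USP21-ΔTreg cells and 89.6 FPKM in WT Treg cells (−0.74). *Irf1* had a log2 fold change of −1.17. *Irf7*, which amplifies interferon production, was at 37.9 FPKM in USP21-ΔTreg cells and 182 FPKM in WT Treg cells (−2.27).

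Of 19 interferon ligand genes listed, 6 were in the table and 2 had a mean of at least 1 FPKM. *Ifng* was at 4.23 FPKM in USP21-ΔTreg cells and 9.47 FPKM in WT Treg cells (log2 fold change −1.15). *Ifnz*, of a type I family with close copies, was at 3.20 FPKM in USP21-ΔTreg cells and 1.43 FPKM in WT Treg cells, from 88 USP21-ΔTreg and 34 WT Treg fragments (1.10). Of the interferon-α genes, 3 were in the table, each near the limit of detection. *Ifna13* and *Ifna14* had at most 1 fragment in either library, *Ifnk* had 2 in each, and *Ifna1* had none, which allows up to 3. *Ifnb1* was not analysed here. Negative regulators of interferon signalling differed by unlike amounts. *Socs1* was at 52.0 FPKM in USP21-ΔTreg cells and 419 FPKM in WT Treg cells (−3.01). *Socs3* was at −2.17 and *Usp18*, given above, at −2.41. *Ptpn2* (−0.28), *Ptpn6* (−0.40), *Ptpn11* (0.23), *Pias1* (0.37) and *Irf2* (0.19) were less than 2-fold apart.

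Beside the members, 28 measured antiviral interferon-stimulated genes outside the list had a smaller median of −0.61, with 12 at least 2-fold lower and none higher. *Ifi204*, a DNA sensor of the mouse, was at 0.427 FPKM in USP21-ΔTreg cells and 7.51 FPKM in WT Treg cells (−3.85). *Mov10* (−2.28), an RNA helicase, and *Zbp1* (−2.21), a sensor of Z-form nucleic acid, were also at least 2-fold lower. The interferon-inducible GTPases, which respond strongly to interferon-γ, had a median of −1.69 on FPKM, near that of the members. By this scale 14 of 17 were at least 2-fold lower. On scaled counts the GTPases had a median of −2.13, against −1.84 for the members, and 16 of 17 were at least 2-fold lower. *Gbp5* (−2.74), *Gbp2* (−2.64), *Gbp11* (−2.46) and *Igtp* (−2.09) led them. Class I processing genes had a median of −1.01, with 6 of 12 at least 2-fold lower, led by *Psme2* (−1.60), *Psmb8* (−1.42), *Psme1* (−1.26) and *Psmb10* (−1.21). Differences between these lists were not tested.

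**Figure D4:**
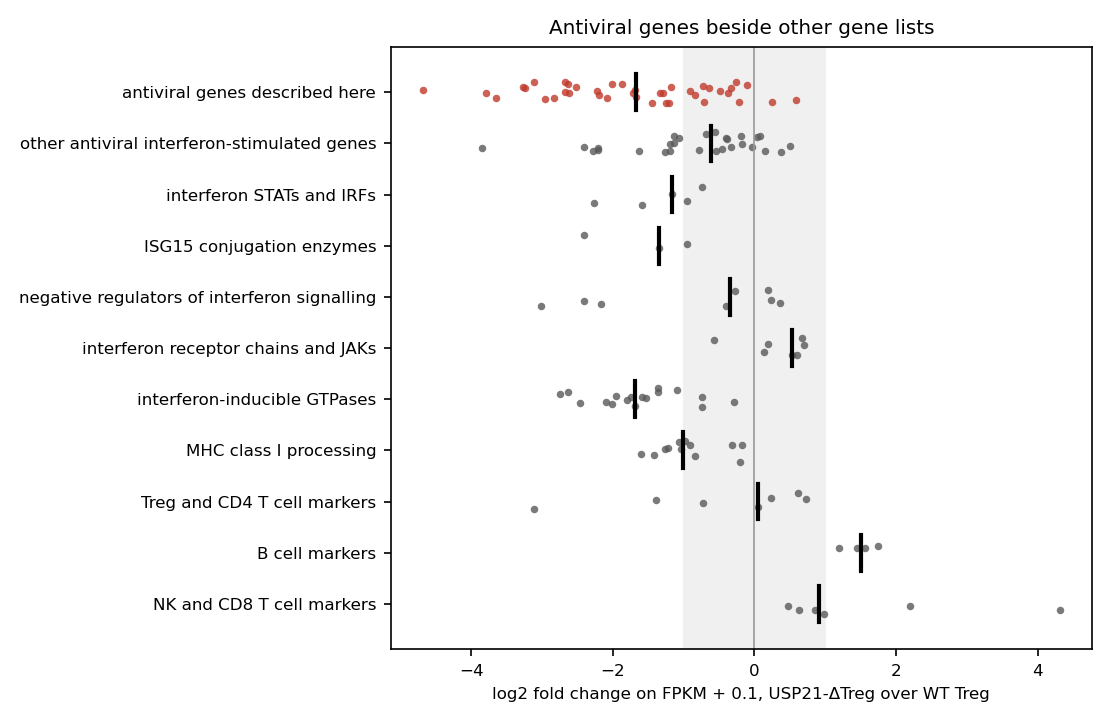
Log2 fold change of USP21-ΔTreg over WT Treg on FPKM + 0.1 (x axis) for the antiviral genes (red points) and for the genes of other lists (grey points) with a mean of at least 1 FPKM, with a black bar at each median. The grey band spans differences under 2-fold. The median of the receptor chains and kinases, 0.53, lies to the right of that of the antiviral genes, while the points of these lists overlap.

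Markers of other cells summed to higher levels in USP21-ΔTreg cells. The 5 B cell markers summed to 25.6 FPKM in USP21-ΔTreg cells and 10.2 FPKM in WT Treg cells, and the count interval of 4 lay above 1. The 8 markers of NK and CD8 T cells summed to 61.2 FPKM in USP21-ΔTreg cells and 23.5 FPKM in WT Treg cells, with 6 intervals above 1. The 7 myeloid markers in the table summed to 8.91 FPKM in USP21-ΔTreg cells and 4.09 FPKM in WT Treg cells, with 2 intervals above 1, 1 below and 4 that held 1. Most of that sum in USP21-ΔTreg cells came from *Lyz2*, at 6.41 FPKM, against 2.03 FPKM in WT Treg cells. For plasmacytoid dendritic cells, major producers of type I interferon, the 5 markers summed to 8.71 FPKM in USP21-ΔTreg cells and 5.18 FPKM in WT Treg cells, with 3 intervals above 1. Among them *Ly6d*, whose interval held 1, was at 4.54 FPKM in USP21-ΔTreg cells and 3.28 FPKM in WT Treg cells. *Ccr9* was at 2.01 FPKM in USP21-ΔTreg cells against 0.883 FPKM in WT Treg cells. The share of all genes with an interval above 1 was not computed. No marker of these lists was at 0 in either library. *Foxp3* had a log2 fold change of −0.73, and 29 of the 40 members were lower than that, as were 9.34% of all genes kept. The part that the make-up of the sorted cells has in the members' difference was not tested. Exons of 14 of the 40 members overlap another annotated gene, and of the 26 without such an overlap 19 were at least 2-fold lower.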

How the data were processed

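RNA-seq of 1 library per genotype was analysed from the table deposited by the authors. The authors removed rRNA, adaptor and low-quality reads, aligned the others to mm10 with TopHat2 2.0.9, allowing 2 mismatches, and ran Cufflinks 2.1.1. The table gives FPKM values, scaled by the authors for transcript length and library size. Its estimated counts were scaled by the authors between libraries, so 1 fragment was worth 0.918 in USP21-ΔTreg and 1.03 in WT Treg cells. Dividing by these gave whole numbers within 0.02 for 97.2% and 96.6% of values above 0. The labels name Trizol and a TruSeq RNA kit, whereas the methods name RNeasy and a stranded total RNA kit. Genes with a mean of at least 1 FPKM were kept. Fold changes were log2 ratios after adding 0.1 FPKM, and a 2-fold limit was used without a test. The study used a 2-fold limit together with a limit on the false discovery rate from Cuffdiff, so its calls are not the same. Count ratios had 95% Clopper-Pearson intervals. Intervals came from scipy 1.17.1 and tables from pandas 2.3.3 with numpy 2.4.6 under Python 3.11.15, figures were drawn with matplotlib 3.10.9, and steps were tested on simulated data. Coordinates are from GENCODE M21 on the same assembly, and promoters from RefSeq on GRCm38.p6. Members, lists and alternatives were chosen with earlier results of these data known. All 43 members are accounted for, each kept member is named, and of other lists the signalling genes kept, but for a gene that is not reported here, and up to 4 genes of each further list by size of difference are named.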

Additional observations from a re-analysis of the deposited data

How the results depend on the processing

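Members at least 2-fold lower, 27 of 40, numbered 27 with 1 FPKM or 0.01 FPKM added, without a minimum and after scaling FPKM to the same sum. They numbered 24 of 36 at a minimum mean of 5 FPKM, 29 after centring on the median of all genes, 30 on scaled counts, 32 at 1.5-fold and 21 at 3-fold, where 12.1% and 2.85% of all genes were lower. No member was higher under any of these but at 1.5-fold, where 1 was, *Oas1g*, beside 22.9% of all genes. The median of the members ranged from −1.87 with centring to −1.56 at the 5 FPKM minimum. No member that was at least 2-fold lower lost this with another scale or added value, and the 5 FPKM minimum left out *Oas2*, *Mx2* and *Ifi44* of them. *Epsti1* and *Samhd1* passed 2-fold with centring and on counts, and *Herc6* on counts. *Ifit2* changed sign on counts. Of 96 medians recomputed for the lists, 2 moved by over 1.5 times, both through fewer or more genes: myeloid markers, 1.61 from 1 gene, were at 0.48 without a minimum, and ligands, −0.02 from 2 genes, at −1.15 with the 5 FPKM minimum, which left *Ifng*. No paired analysis was possible because a single library stood for each genotype. The lack of replicates limits every difference, and depth limits the members with few fragments, such as *Ifitm3* with 11 and *Oas2* with 15 in USP21-ΔTreg cells.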
